A study of Homo sapiens with 9 samples.

Results

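The 10 genes described here encode aldo-keto reductases and enzymes that the transcription factor NRF2 is known to control: AKR1B10, AKR1B1, AKR1C1, AKR1C2, AKR1C3, NQO1, GCLC, GCLM, TXNRD1 and HMOX1. They were picked by symbol as a list, with earlier results of these data known. Each of the 10 had a row of its own among the 21170 features of the count table. Poly(A) RNA of HaCaT cells, an immortalised line of human keratinocytes, was sequenced in 9 libraries. The mut-FTO group (n = 3) expressed a mutant FTO whose demethylase activity is disrupted, the FTO group (n = 3) expressed wild-type FTO, and the Vector group (n = 3) carried the empty vector. FTO removes methyl groups from adenosines in RNA. The mut-FTO and FTO groups are overexpression cultures. All 3 groups are of the same line, without a group that lacks a vector. The promoter of the constructs, the mutation, and whether each group was 1 clone or a mixed population were not given in the sources used here. Whether replicate libraries were grown as separate cultures was not stated either, and p-values therefore reflect only library-to-library spread, which may be technical.

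NRF2, encoded by NFE2L2, is held in the cytoplasm by KEAP1, which hands it to a ubiquitin ligase for degradation. Electrophiles and oxidants modify cysteines of KEAP1, after which NRF2 accumulates, pairs with a small MAF protein and binds antioxidant response elements, while BACH1 competes for the same elements and is best known for repressing HMOX1. Keratinocytes meet ultraviolet light, oxygen and plant or synthetic chemicals, and the NRF2 pathway is one of their main defences against these. The aldo-keto reductases use NADPH to reduce aldehydes and ketones, among them lipid peroxidation products, retinal, steroids and prostaglandins.

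Depth ranged from 32222203 to 37846027 counts per library. FTO itself had 49.7, 82.7 and 64.3 CPM, the counts scaled to library size with TMM factors, in mut-FTO libraries and 69.6, 77.1 and 62.6 CPM in FTO libraries, against 18.4, 17.0 and 25.8 CPM in Vector libraries. FTO rose in mut-FTO (log2 fold change 1.68, SE 0.22, edgeR adjusted p = 0.000513) and in FTO (log2 1.77, SE 0.22, edgeR adjusted p = 0.00266) against Vector. Both construct groups were above Vector with no overlap, and they overlapped each other, so the FTO level tells Vector apart and does not tell mut-FTO from FTO. The 10 keratinocyte markers were all detected, at summed levels of 22552 to 29182 CPM in mut-FTO, 18256 to 19105 CPM in FTO and 14726 to 19274 CPM in Vector. Of the markers of other cells, 3 of 8 for fibroblasts, 3 of 9 for leukocytes, 2 of 7 for melanocytes and 1 of 6 for endothelial cells passed the filter on low counts. Summed fibroblast markers lay at 6.60 to 9.04 CPM in mut-FTO, 5.26 to 6.87 CPM in FTO and 9.15 to 9.90 CPM in Vector, with DPT and THY1 at 0. Summed leukocyte markers lay at 45.3 to 81.7 CPM in mut-FTO, 50.8 to 57.1 CPM in FTO and 52.1 to 80.0 CPM in Vector, with CD3D, MS4A1 and TYROBP at 0. Nearly all of this was CD68, at 44.4 to 80.4 CPM in mut-FTO, 50.4 to 56.7 in FTO and 51.5 to 79.0 in Vector. No other leukocyte marker exceeded 0.874 CPM in any library. Melanocyte markers summed to at most 2.65 CPM and endothelial markers to at most 1.73 CPM in any library, with TYR, DCT, PECAM1 and EMCN at 0. Vector replicate 3 stood apart: genes of the mitochondrial genome took 14.97% of its counts, against 4.16% and 4.20% in the other Vector libraries, 5.52% to 7.45% in mut-FTO and 3.80% to 4.32% in FTO. Assembled loci, features without a gene symbol, took 3.17% of the counts in mut-FTO replicate 2 and 2.50% in Vector replicate 3. In every other library they took 0.69% to 0.87%. An alternative therefore left out both of these libraries. The part of their composition in the results was not tested. Values without Vector replicate 3 are given beside those results whose call changes when it is left out.

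The AKR1C genes are neighbours on chromosome 10 and near copies of each other, which limits how far their reads can be told apart. In the coding sequence, AKR1C1 and AKR1C2 were 98.0% identical, with 950 of 969 bases the same, AKR1C1 and AKR1C3 were 91.7% identical, and AKR1C2 and AKR1C3 91.3%. Of all stretches of 100 bases in the AKR1C1 coding sequence, 18.9% occurred unchanged in AKR1C2, so a read of that length from such a stretch has no unique origin. The likeness extends into the promoters, which are shown for that reason as the 250 bases before each annotated start (RefSeq, GRCh38.p14, each 5′ to 3′ on its gene's strand). Capitals mark bases that differ from AKR1C1 in the alignment or have no partner in it. The windows are chr10:4963165-4963414 (plus strand) for AKR1C1, chr10:5003858-5004107 (minus strand) for AKR1C2 and chr10:5048531-5048780 (plus strand) for AKR1C3. A further window annotated for AKR1C3, chr10:5094164-5094463 (plus strand), was not compared.
AKR1C1: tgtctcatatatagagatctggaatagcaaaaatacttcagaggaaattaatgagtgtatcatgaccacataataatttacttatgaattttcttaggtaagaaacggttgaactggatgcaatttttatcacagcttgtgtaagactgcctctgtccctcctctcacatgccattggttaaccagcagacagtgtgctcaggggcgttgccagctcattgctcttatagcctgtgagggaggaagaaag
AKR1C2: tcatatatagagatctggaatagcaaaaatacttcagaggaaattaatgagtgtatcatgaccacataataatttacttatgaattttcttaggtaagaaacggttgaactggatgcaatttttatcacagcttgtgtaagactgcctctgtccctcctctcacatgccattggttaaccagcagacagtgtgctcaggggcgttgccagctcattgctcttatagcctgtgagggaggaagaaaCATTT
AKR1C3: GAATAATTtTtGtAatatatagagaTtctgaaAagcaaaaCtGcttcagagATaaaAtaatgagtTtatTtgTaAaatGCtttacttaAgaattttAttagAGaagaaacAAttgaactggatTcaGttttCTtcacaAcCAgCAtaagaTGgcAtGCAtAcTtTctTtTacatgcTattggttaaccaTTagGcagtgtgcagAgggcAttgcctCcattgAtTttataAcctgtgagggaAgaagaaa
The AKR1C2 window matched AKR1C1 in 245 of 254 aligned positions, with the windows shifted against each other. Most capitals at the AKR1C2 end lie past the end of the AKR1C1 window and do not show a difference there. The AKR1C3 window shown differed throughout, with 72.1% of aligned positions identical to AKR1C1.

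NRF2 and its partner recognise a short core, TGACNNNGC, and 3 of the 11 promoter windows of 300 bases that were annotated for 8 of the genes held it on either strand. The core occurred in 13.4% of the 35116 human promoter windows of that length. It lay in GCLM and in both windows of TXNRD1 and in none of the AKR1B1, AKR1C, NQO1 or GCLC windows, which says only that these letters are not in those windows. The GCLM and TXNRD1 stretches are shown because each comes from a window with a single match (RefSeq, GRCh38.p14), at chr1:93909431-93909504 (minus strand) and chr12:104286890-104286978 (plus strand). Capitals mark the core, which reads on the opposite strand in both.
GCLM: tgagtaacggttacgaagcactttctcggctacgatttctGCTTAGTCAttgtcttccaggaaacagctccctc
TXNRD1: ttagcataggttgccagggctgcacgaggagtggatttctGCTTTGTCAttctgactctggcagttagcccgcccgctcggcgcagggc
The core began at base -34 from the GCLM start and at base -102 from this TXNRD1 start. The AP-1 site TGANTCA, searched on both strands, was in 7.71% of all windows and in 0 of the 11, so no match of one motif overlapped the other there.

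AKR1B10, which reduces retinal and toxic aldehydes, had the largest fold change of the 10 genes in each of the 3 comparisons. It had 20.03, 24.1 and 23.5 CPM in mut-FTO libraries and 6.59, 5.26 and 9.87 CPM in FTO libraries, against 1.55, 3.30 and 1.78 CPM in Vector libraries. Every mut-FTO library was above every FTO library, and every FTO library was above every Vector library. Against Vector the gene rose 10.2-fold in mut-FTO (log2 fold change 3.35, SE 0.32; quasi-likelihood test of edgeR, Benjamini-Hochberg adjusted p = 6.19e-05). Against the same Vector libraries it rose 3.27-fold in FTO (log2 1.71, SE 0.31, edgeR adjusted p = 0.0264). Against FTO it rose 3.11-fold in mut-FTO (log2 1.64, SE 0.30, edgeR adjusted p = 0.0129). The Vector level rests on 53, 118 and 63 reads. The call of mut-FTO against Vector held in each alternative tried, with adjusted p up to 0.00118. The call of FTO against Vector was lost in 7 of 19 alternatives, 6 of them leaving out 1 library (mut-FTO replicate 1, 2 or 3, FTO replicate 1 or 3, or Vector replicate 1) and 1 using only the 6 compared samples, with an adjusted p of 2.16e-05 to 0.171 over all of them. That of mut-FTO against FTO was lost without mut-FTO replicate 2 or 3 and without FTO replicate 1 or 2, with an adjusted p of 8.93e-06 to 0.0870 over all alternatives.

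AKR1B1, the aldose reductase that turns glucose into sorbitol, lies next to AKR1B10 in the genome and is 76.3% identical to it in the coding sequence, with 0 shared stretches of 100 bases. It had 170, 170 and 196 CPM in mut-FTO libraries and 129, 113 and 148 CPM in FTO libraries, against 119, 111 and 48.1 CPM in Vector libraries. All mut-FTO libraries lay above those of both other groups, FTO and Vector overlapped, and Vector replicate 3 was the lowest of all 9. The fitted difference of mut-FTO against Vector was 1.92-fold and missed the threshold (log2 0.94, SE 0.27, edgeR adjusted p = 0.0558). It was smaller, at log2 0.62, and passed without Vector replicate 3 (edgeR adjusted p = 0.00401), and it also passed without Vector replicate 1, while over all alternatives the adjusted p ran from 0.00169 to 0.178. Differences of 1.40-fold for FTO against Vector and 1.37-fold for mut-FTO against FTO did not pass (edgeR adjusted p = 0.503 and 0.497). Without Vector replicate 3, AKR1B1 in mut-FTO against FTO was log2 0.47 and passed (edgeR adjusted p = 0.0161). The ratio of the neighbours, which needs no scaling between libraries, was 11.8, 14.2 and 12.0 AKR1B10 reads per 100 AKR1B1 reads in mut-FTO, 5.09, 4.67 and 6.67 in FTO and 1.30, 2.96 and 3.70 in Vector, so the groups kept the order without overlap. AKR1B15, the other neighbour of AKR1B10 and 85.7% identical to it, shared 2% of the 100-base stretches.

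**Figure D1:**
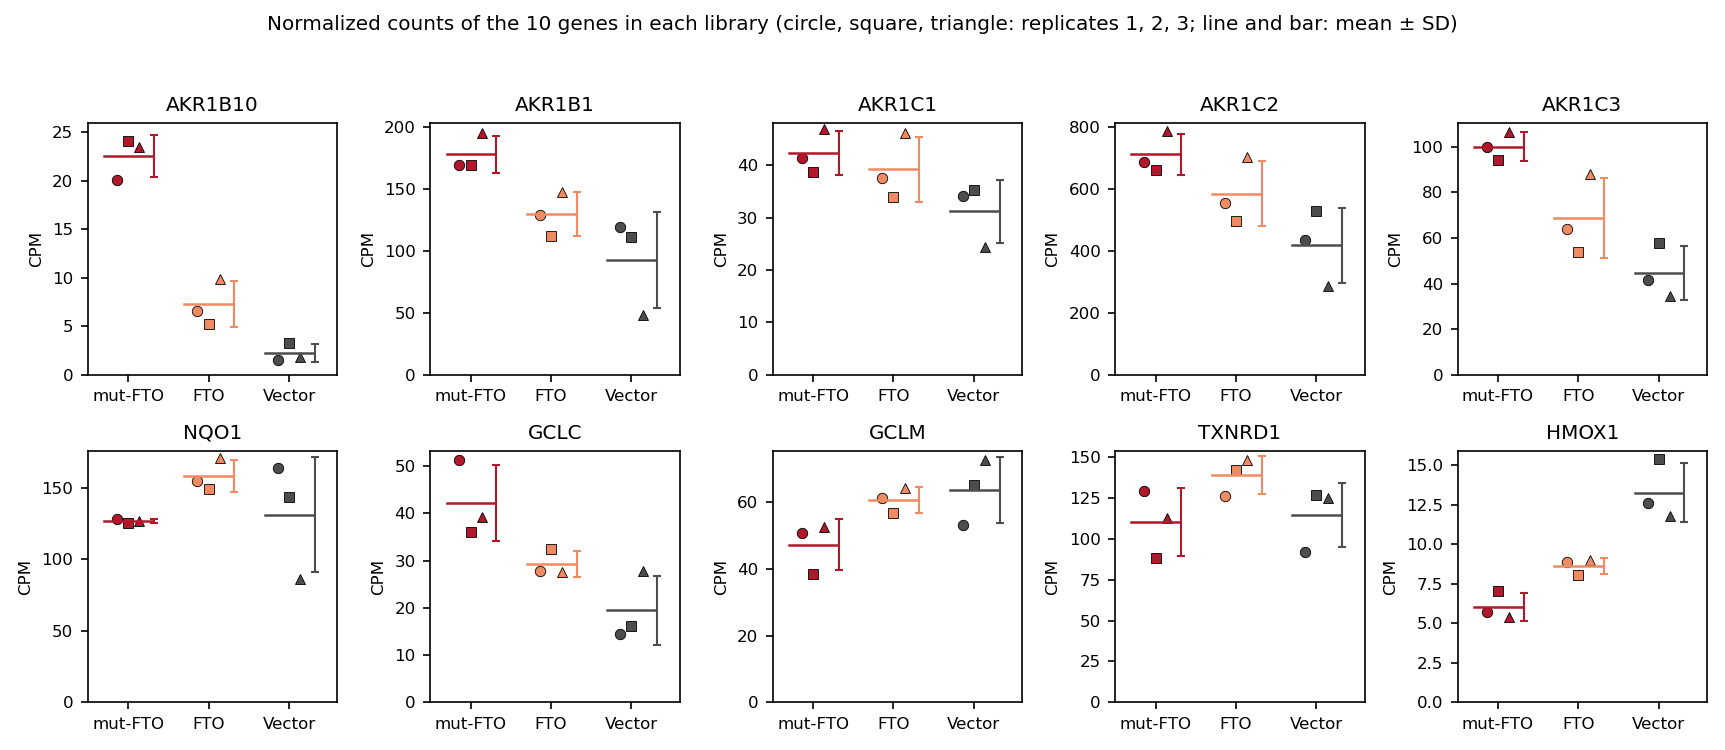
CPM of the 10 genes in each library on a linear axis, a panel per gene, with mut-FTO, FTO and Vector from left to right. Points are libraries, horizontal lines are group means and vertical bars are the SD around them. AKR1B10 falls into 3 separate levels with means of 22.5, 7.24 and 2.21 CPM, HMOX1 runs the other way at 6.04, 8.63 and 13.3 CPM, and TXNRD1 overlaps between all groups.

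AKR1C3, a reductase that makes testosterone from androstenedione and also acts as a prostaglandin F synthase, rose 2.25-fold in mut-FTO against Vector (log2 1.17, SE 0.22, edgeR adjusted p = 0.00601). It had 99.8, 94.0 and 107 CPM in mut-FTO libraries and 64.1, 53.8 and 88.1 CPM in FTO libraries, against 41.6, 57.8 and 34.4 CPM in Vector libraries. Mut-FTO was above both other groups in every library, and FTO overlapped Vector because FTO replicate 2 was below Vector replicate 2. FTO was 1.54-fold Vector and mut-FTO was 1.46-fold FTO, and neither difference passed (edgeR adjusted p = 0.294 and 0.278). Without Vector replicate 3, AKR1C3 in mut-FTO against FTO was log2 0.56 and passed (edgeR adjusted p = 0.0386). The rise in mut-FTO against Vector held in each alternative tried, with adjusted p up to 0.0333.

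AKR1C2, which inactivates dihydrotestosterone, had 686, 661 and 785 CPM in mut-FTO libraries and 555, 497 and 701 CPM in FTO libraries, against 434, 529 and 288 CPM in Vector libraries. Mut-FTO libraries were all above Vector and overlapped FTO, where replicate 3 was higher than 2 of the mut-FTO libraries. The difference of 1.70-fold for mut-FTO against Vector missed the threshold (log2 0.77, SE 0.22, edgeR adjusted p = 0.0524). It passed without Vector replicate 3 (log2 0.55, edgeR adjusted p = 0.0184), without Vector replicate 2, without both Vector replicate 3 and mut-FTO replicate 2, with no filter, with DESeq2 and with limma-voom, over a range of 0.00831 to 0.186 for all alternatives. AKR1C1, which inactivates progesterone, had 41.4, 38.8 and 46.9 CPM in mut-FTO libraries and 37.5, 33.96 and 46.2 CPM in FTO libraries, against 34.1, 35.2 and 24.3 CPM in Vector libraries. Its mut-FTO libraries were above Vector by 1.36-fold without passing (log2 0.44, SE 0.19, edgeR adjusted p = 0.207). Neither AKR1C1 nor AKR1C2 passed for FTO against Vector (log2 0.33 and 0.49, edgeR adjusted p = 0.520 and 0.409) or for mut-FTO against FTO (log2 0.11 and 0.28, edgeR adjusted p = 0.868 and 0.640).

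Since reads could have been split among the copies in a way that is not known, the AKR1C rows were also added up, which does not depend on the split. The sum was 827, 794 and 939 CPM in mut-FTO libraries and 657, 585 and 836 CPM in FTO libraries, against 510, 621 and 346 CPM in Vector libraries. It rose 1.73-fold in mut-FTO against Vector (log2 0.79, SE 0.22, edgeR adjusted p = 0.0443 among all genes), with no overlap. This call was narrow: it was lost in 10 of 19 alternatives, among them each library of mut-FTO or FTO left out and Vector replicate 1 left out, with adjusted p from 0.00642 to 0.165. The difference without Vector replicate 3 was log2 0.58 (edgeR adjusted p = 0.0143). FTO against Vector (log2 0.49, SE 0.22) and mut-FTO against FTO (log2 0.30, SE 0.22) did not pass (edgeR adjusted p = 0.406 and 0.601).

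The copies did not move by the same factor. Per 100 AKR1C2 reads there were 14.6, 14.2 and 13.6 AKR1C3 reads in mut-FTO, 11.6, 10.8 and 12.6 in FTO and 9.58, 10.9 and 12.0 in Vector. The AKR1C3 ratio was higher in every mut-FTO library than in all others, and FTO and Vector overlapped. AKR1C1 reads per 100 AKR1C2 reads ran the other way, with 6.03, 5.87 and 5.97 in mut-FTO, 6.76, 6.83 and 6.58 in FTO and 7.85, 6.66 and 8.46 in Vector. All mut-FTO libraries were the lowest for this ratio. The ratios are descriptions with no test, and a change in how reads were assigned to the copies cannot be told apart from a change in their RNA.

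**Figure D2:**
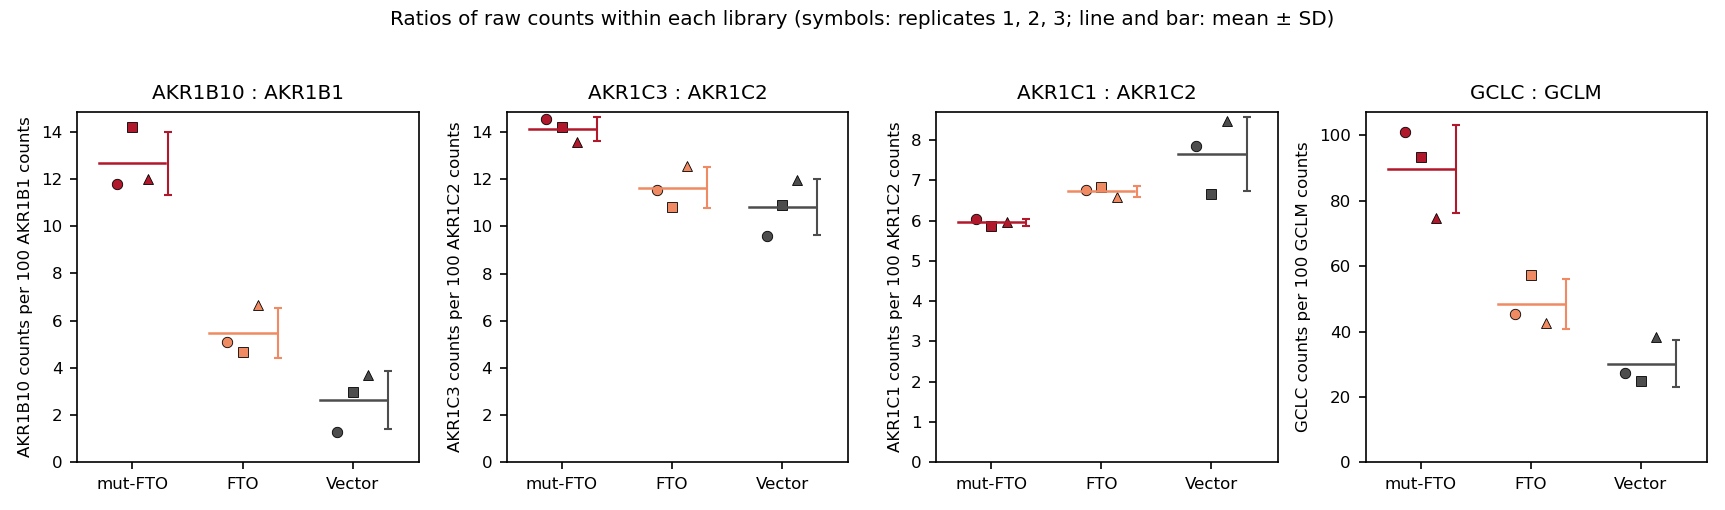
Reads of one gene per 100 reads of its partner in the same library, for AKR1B10 with AKR1B1, AKR1C3 with AKR1C2, AKR1C1 with AKR1C2, and GCLC with GCLM; points are libraries, in the order mut-FTO, FTO, Vector. The ratios with AKR1B10, AKR1C3 and GCLC are highest in mut-FTO, and AKR1C1 per 100 AKR1C2 is lowest there.

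Glutamate-cysteine ligase makes the first and limiting step of glutathione synthesis and consists of a catalytic subunit, GCLC, and a modifier subunit, GCLM, that raises its activity. GCLC had 51.2, 36.0 and 39.3 CPM in mut-FTO libraries and 27.8, 32.5 and 27.5 CPM in FTO libraries, against 14.5, 16.2 and 27.8 CPM in Vector libraries. Mut-FTO was above both other groups in every library, while FTO overlapped Vector only through Vector replicate 3. GCLC rose 2.16-fold in mut-FTO against Vector (log2 1.11, SE 0.25, edgeR adjusted p = 0.0143). The call was lost without mut-FTO replicate 1, without Vector replicate 2 and with only the 6 compared samples in the fit, over a range of adjusted p from 9.83e-07 to 0.0736 for all alternatives. FTO was 1.501-fold Vector and did not pass (log2 0.59, SE 0.24, edgeR adjusted p = 0.372). That difference was log2 0.91 and passed without Vector replicate 3 (edgeR adjusted p = 0.00631), with 7.14e-04 to 0.736 over all alternatives. Mut-FTO was 1.44-fold FTO and did not pass (log2 0.53, SE 0.24, edgeR adjusted p = 0.359). Without Vector replicate 3, GCLC in mut-FTO against FTO was log2 0.54 and passed (edgeR adjusted p = 0.0274).

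GCLM did not pass in any comparison and its differences pointed down. It had 50.7, 38.5 and 52.6 CPM in mut-FTO libraries and 61.2, 56.8 and 64.4 CPM in FTO libraries, against 53.1, 65.3 and 72.6 CPM in Vector libraries. Mut-FTO libraries were below all others, by a margin under 1 CPM at the nearest Vector library, and FTO overlapped Vector. The fitted differences were log2 -0.43 for mut-FTO against Vector (SE 0.18, edgeR adjusted p = 0.174), log2 -0.07 for FTO against Vector (edgeR adjusted p = 0.914) and log2 -0.36 for mut-FTO against FTO (edgeR adjusted p = 0.387). The subunit ratio was 101, 93.4 and 74.7 GCLC reads per 100 GCLM reads in mut-FTO, 45.5, 57.2 and 42.7 in FTO and 27.3, 24.8 and 38.3 in Vector. The ratio kept the groups apart in every library, with no test made on it.

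NQO1, which reduces quinones to hydroquinones and is the gene most used as a readout of NRF2, had 128, 126 and 127 CPM in mut-FTO libraries and 155, 149 and 171 CPM in FTO libraries, against 164, 144 and 86.4 CPM in Vector libraries. Vector overlapped both other groups, with replicate 3 the lowest of all 9 libraries, and every mut-FTO library was below every FTO library. No comparison passed: mut-FTO against Vector was log2 -0.05 (SE 0.20, edgeR adjusted p = 0.921), FTO against Vector 0.27 (SE 0.20, edgeR adjusted p = 0.633) and mut-FTO against FTO -0.32 (SE 0.20, edgeR adjusted p = 0.538). Leaving out Vector replicate 3 gave log2 -0.29 for mut-FTO against Vector, which did not pass (edgeR adjusted p = 0.115), and it turned above 0 without Vector replicate 1 or 2.

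TXNRD1, the selenoenzyme that keeps thioredoxin reduced, had 129, 88.3 and 113 CPM in mut-FTO libraries and 126, 142 and 148 CPM in FTO libraries, against 91.8, 127 and 125 CPM in Vector libraries. All groups overlapped. Its differences were log2 -0.06 for mut-FTO against Vector, 0.28 for FTO against Vector and -0.33 for mut-FTO against FTO, each with an SE of 0.18 (edgeR adjusted p = 0.898, 0.582 and 0.456). For both NQO1 and TXNRD1 a difference that misses the threshold does not show equal levels.

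HMOX1, which breaks down heme to biliverdin, carbon monoxide and iron, was the one member that fell. It had 5.70, 7.03 and 5.40 CPM in mut-FTO libraries and 8.87, 8.05 and 8.98 CPM in FTO libraries, against 12.6, 15.4 and 11.8 CPM in Vector libraries. The groups were fully separate, in the reverse order of AKR1B10. HMOX1 fell 2.20-fold in mut-FTO against Vector (log2 -1.13, SE 0.20, edgeR adjusted p = 0.00358), and this call held in each alternative tried, with adjusted p up to 0.0280. FTO was log2 -0.62 relative to Vector (SE 0.20, edgeR adjusted p = 0.233) and mut-FTO was log2 -0.52 relative to FTO (SE 0.20, edgeR adjusted p = 0.246), and neither passed. Leaving out Vector replicate 3, FTO against Vector was log2 -0.72 and passed (edgeR adjusted p = 0.0452), with 0.0185 to 0.628 over all alternatives.

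**Figure D3:**
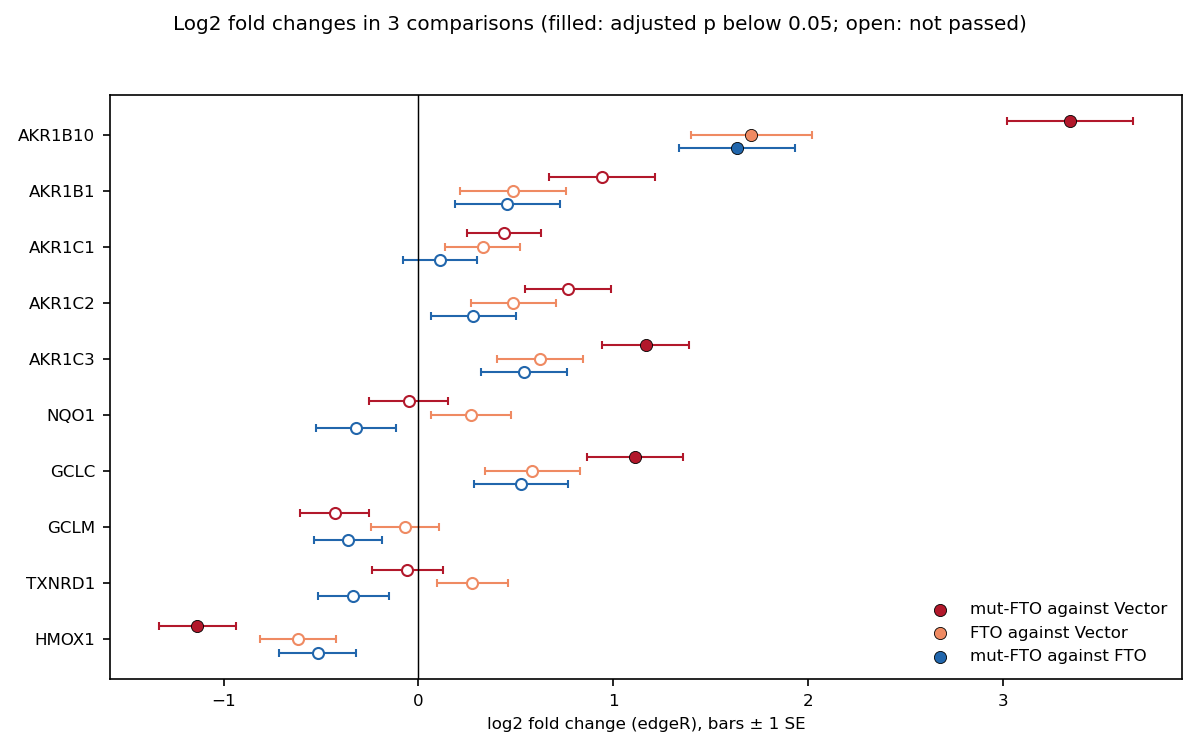
Log2 fold changes of the 10 genes with standard errors in the 3 comparisons (edgeR); filled points passed an adjusted p of 0.05 and open points did not. AKR1B10 is filled in all 3 comparisons, AKR1C3, GCLC and HMOX1 are filled for mut-FTO against Vector alone, and the remaining 6 genes are open throughout.

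Counted together, 3 of the 10 genes rose (AKR1B10, AKR1C3 and GCLC) and 1 fell (HMOX1) in mut-FTO against Vector, where 7.78% of the 13713 genes tested were called, 3.27% higher and 4.51% lower. All 10 passed the filter on low counts. They were chosen with earlier results of these data known, so their shares and medians are not those of a list chosen independently of the data. The groups did not overlap for 8 of the 10, with 6 higher and 2 lower, against 24% of all genes, 12.2% higher and 11.8% lower. The members' median log2 fold change was 0.60, and that of all genes tested was -0.0012. In FTO against Vector, which uses the same Vector libraries, 1 member rose, AKR1B10, where 0.744% of all genes were called, 0.306% higher and 0.438% lower, and groups were separate for 1 member higher, AKR1B10, and 1 lower, HMOX1, against 21% of all genes, 10.1% higher and 10.9% lower. The median was 0.41, beside -0.0020 for all genes. In mut-FTO against FTO 1 member rose, AKR1B10, where 2.33% of all genes were called, 1.13% higher and 1.2% lower, and groups were separate for 7 members, 4 higher and 3 lower, against 29% of all genes, 14.2% higher and 14.8% lower. The median there was 0.20, beside -0.0046 for all genes. At an unadjusted p below 0.05 the members past it were 8 in mut-FTO against Vector, 5 in FTO against Vector and 3 in mut-FTO against FTO. Of the 13713 genes tested, 2899, 1631 and 1918 were past it in that order.

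Without Vector replicate 3 more of the members passed, and so did more of all genes. The members' median log2 fold change was then 0.42 in mut-FTO against Vector, 0.21 in FTO against Vector and 0.21 in mut-FTO against FTO. Medians of all genes were 0.024, -0.011 and 0.011 in that order. In mut-FTO against Vector 5 then rose (AKR1B10, AKR1B1, AKR1C2, AKR1C3 and GCLC) and HMOX1 fell, where 15% of 13953 genes were called, 6.56% higher and 8.41% lower. In FTO against Vector AKR1B10 and GCLC rose and HMOX1 fell, where 3.41% were called, 1.15% higher and 2.26% lower. In mut-FTO against FTO, which does not use the Vector libraries except through the shared filter, scaling and spread, AKR1B10, AKR1B1, AKR1C3 and GCLC rose, where 10.2% were called, 5.63% higher and 4.6% lower.

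Levels between genes were compared as mean CPM per kilobase of coding sequence (GENCODE v29), since counts grow with length. AKR1C2 led in every group, at 733 in mut-FTO, 603 in FTO and 430 in Vector. How reads were divided among the AKR1C copies is not known, which limits the order among them. AKR1B10 had the lowest mean of the 10 in Vector, at 2.33, and in FTO, at 7.64, whereas in mut-FTO, at 23.8, it lay above GCLC, at 22.1, and HMOX1, at 6.996. On this scale AKR1B10 overlapped GCLC among the mut-FTO libraries and HMOX1 among the FTO libraries, so the order of those pairs is not settled. Coding length leaves out untranslated ends, whose lengths differ between annotated transcripts. Per kilobase of the longest transcript with the full coding length, the mut-FTO mean of AKR1B10, at 14.2, also lay above those of GCLM, at 9.73, and AKR1C1, at 6.31.

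The levels of the regulators themselves were looked at next, from a list of 11 genes that all passed the filter on low counts. None passed in any of the 3 comparisons with edgeR on all 9 libraries. At an unadjusted p below 0.05 there were 3 regulators for mut-FTO against Vector, 1 for FTO against Vector and 1 for mut-FTO against FTO. Of all 13713 genes tested, 2899, 1631 and 1918 were below it. Of the regulators, DESeq2 called 1, 0 and 1 in that order, and limma-voom called 0 in each. Of all 13713 genes tested, DESeq2 called 1680, 366 and 751, and limma-voom called 1058, 93 and 278. The regulators' median log2 fold changes were -0.02, -0.06 and -0.03. NFE2L2 had 117, 101 and 85.4 CPM in mut-FTO libraries and 96.3, 101 and 113 CPM in FTO libraries, against 64.6, 75.5 and 164 CPM in Vector libraries. Vector replicate 3 was the highest of all libraries for NFE2L2 and the other Vector libraries were the lowest. The fitted difference of mut-FTO against Vector was log2 -0.0017 (SE 0.29, edgeR adjusted p = 0.999). Without Vector replicate 3 it was log2 0.52 and passed (SE 0.15, edgeR adjusted p = 0.0225), over a range of 0.0218 to 1 for all alternatives, so that 1 library decided this value. KEAP1 had 92.7, 98.8 and 104 CPM in mut-FTO libraries and 88.7, 91.1 and 85.8 CPM in FTO libraries, against 91.6, 93.7 and 50.8 CPM in Vector libraries, and its differences did not pass (log2 0.32, 0.17 and 0.15; edgeR adjusted p = 0.410, 0.779 and 0.821). Without Vector replicate 3, SQSTM1, whose product sequesters KEAP1, and the small MAF genes MAFF, MAFG and MAFK fell in mut-FTO against Vector (log2 -0.64, -0.67, -0.63 and -0.54; edgeR adjusted p = 0.000677, 0.000796, 0.00287 and 0.0122). SQSTM1 and MAFF then also fell in mut-FTO against FTO (log2 -0.34 and -0.74; edgeR adjusted p = 0.0410 and 0.000284).

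Other genes of the pathway were taken from lists of 66 symbols, the 11 regulators included, of which 62 passed the filter on low counts. In mut-FTO against Vector 5 rose and 1 fell, with a median of 0.18. In FTO against Vector 0 passed with edgeR, DESeq2 or limma-voom, and the median was 0.08. There, 4 had an unadjusted p below 0.05 in edgeR, as did 1631 of all 13713 genes tested. Of all genes tested, DESeq2 called 366 in this comparison and limma-voom 93. In mut-FTO against FTO 2 rose and 0 fell, with a median of 0.04. Those medians stand beside -0.0012, -0.0020 and -0.0046 for all genes tested, and the shares called beside 7.78%, 0.744% and 2.33%. The lists too were chosen with earlier results of these data known, which limits this comparison.

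Among 14 glutathione and thioredoxin genes, GPX2 and GSTM3 rose in mut-FTO against Vector. GPX2, a glutathione peroxidase of epithelia, had 298, 383 and 282 CPM in mut-FTO libraries and 188, 159 and 205 CPM in FTO libraries, against 152, 141 and 192 CPM in Vector libraries. Mut-FTO was above all other libraries and FTO overlapped Vector. GPX2 rose 1.99-fold against Vector (log2 0.99, SE 0.18, edgeR adjusted p = 0.00486), which held in each alternative tried, and 1.75-fold against FTO (log2 0.80, SE 0.18, edgeR adjusted p = 0.0404). The call against FTO was lost with each single mut-FTO or FTO library left out, without Vector replicate 2 and with the replicate number as a block, over a range of 6.73e-04 to 0.221 for all alternatives. GSTM3, a glutathione transferase, was low, at 0.949 ± 0.284 CPM in mut-FTO, 0.650 ± 0.222 in FTO and 0.218 ± 0.0706 in Vector (SD, n = 3 each). Its rise of 4.29-fold in mut-FTO against Vector (log2 2.10, SE 0.57, edgeR adjusted p = 0.0404) was lost when any 1 library of the 9 was left out, with 0.00664 to 0.169 over all alternatives. Without Vector replicate 3 the difference was log2 1.86 (edgeR adjusted p = 0.0806). The other glutathione and thioredoxin genes did not pass in any comparison.

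Among 18 detoxification and export genes, CYP4F11, ALDH3A1 and TRIM16L rose and UGDH fell in mut-FTO against Vector. CYP4F11, a hydroxylase of fatty acids and vitamin K, had 11.3, 13.3 and 13.8 CPM in mut-FTO libraries and 7.12, 7.001 and 7.32 CPM in FTO libraries, against 6.95, 6.63 and 7.02 CPM in Vector libraries. All mut-FTO libraries were above the narrow range of FTO and Vector, which overlapped. CYP4F11 rose 1.87-fold against Vector (log2 0.90, SE 0.18, edgeR adjusted p = 0.00850) and 1.79-fold against FTO (log2 0.84, SE 0.18, edgeR adjusted p = 0.0300). The first call was lost without mut-FTO replicate 3 and with only the 6 compared samples, with 3.72e-05 to 0.0517 over all alternatives. The second was lost without mut-FTO replicate 2 or 3, any 1 FTO library or Vector replicate 2 and with the replicate number as a block, with 2.53e-04 to 0.166. ALDH3A1, which oxidises aldehydes, had 161, 199 and 188 CPM in mut-FTO libraries and 143, 120 and 120 CPM in FTO libraries, against 99.5, 107 and 57.8 CPM in Vector libraries. Its groups were fully separate, in the same order as for AKR1B10. ALDH3A1 rose 2.08-fold in mut-FTO against Vector (log2 1.05, SE 0.21, edgeR adjusted p = 0.00913), a call that was lost without mut-FTO replicate 2, with 1.94e-04 to 0.0534 over all alternatives. TRIM16L averaged 58.5 ± 7.96 CPM in mut-FTO, 37.7 ± 4.61 in FTO and 33.2 ± 6.72 in Vector (SD, n = 3 each) and rose 1.76-fold in mut-FTO against Vector (log2 0.82, SE 0.19, edgeR adjusted p = 0.0208). That call was lost without mut-FTO replicate 2 or 3, with only the 6 compared samples and with the replicate block, with 0.00193 to 0.112 over all alternatives, and TRIM16L shares sequence with TRIM16, so its reads are uncertain, as are those of CYP4F11 with its near copies. UGDH, which makes the glucuronic acid donor for conjugation, averaged 24.9 ± 2.32 CPM in mut-FTO, 33.3 ± 1.98 in FTO and 42.2 ± 9.92 in Vector (SD, n = 3 each) and fell 1.70-fold in mut-FTO against Vector (log2 -0.76, SE 0.19, edgeR adjusted p = 0.0281). The UGDH call was lost in 9 of 19 alternatives, namely without any 1 mut-FTO or FTO library, without Vector replicate 2, with only the 6 compared samples and with the replicate block, with 0.00197 to 0.113 over all alternatives. The fit without Vector replicate 3 also called PTGR1, a reductase of prostaglandins (log2 0.52), and AIFM2, a reductase of ubiquinone (log2 -0.60), in mut-FTO against Vector (edgeR adjusted p = 0.0109 and 0.00343). In FTO against Vector it called TRIM16 (log2 -0.49, edgeR adjusted p = 0.0482). In mut-FTO against FTO it called TRIM16 (log2 0.43), ALDH3A1 (log2 0.53) and TRIM16L (log2 0.65) as higher (edgeR adjusted p = 0.0256, 0.00642 and 0.00383).

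None of 6 NADPH supply genes, 8 heme and iron genes or 5 other aldo-keto reductases passed in any comparison with edgeR on all 9 libraries. At an unadjusted p below 0.05 in mut-FTO against Vector there were 1, 2 and 0 of them, where 2899 of all 13713 genes tested were below it. DESeq2 called 0, 2 and 0 genes of these lists there, while limma-voom called 0 of each. Of all genes tested, DESeq2 called 1680 in that comparison and limma-voom 1058. The medians of these lists in mut-FTO against Vector were 0.17, 0.11 and 0.40. The last is the value of AKR1E2 (SE 0.63), which averaged 0.565 CPM in mut-FTO and 0.426 CPM in Vector. AKR1B15, AKR1E2 and AKR7A3 of that list stayed below 1 CPM in every library. Without Vector replicate 3, FECH, which makes heme, was lower (log2 -0.48, edgeR adjusted p = 0.0283) and SLC48A1, a heme transporter, was higher in mut-FTO against Vector (log2 0.44, edgeR adjusted p = 0.0481). SLC48A1 then also passed in mut-FTO against FTO (log2 0.41, edgeR adjusted p = 0.0499). MGST1, AKR1C4 and AKR1D1 had 0 counts in all libraries, and AKR7L had no row.

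**Figure D4:**
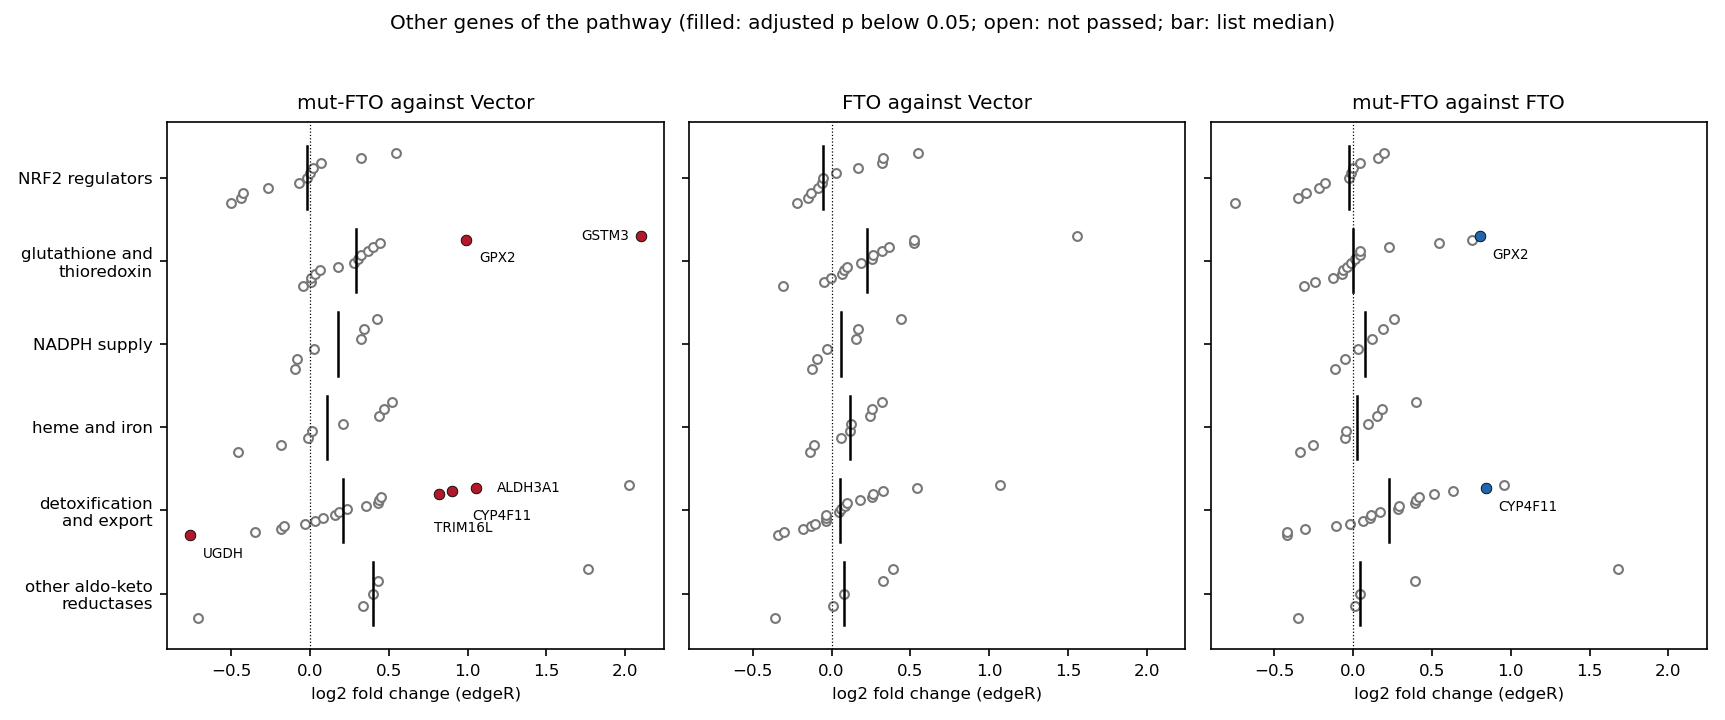
Log2 fold changes (edgeR) of the 62 other pathway genes by list in the 3 comparisons; points are genes, filled where the adjusted p was below 0.05, and bars are list medians. In mut-FTO against Vector 6 genes are filled, in FTO against Vector none, and in mut-FTO against FTO GPX2 and CYP4F11.

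The features whose pattern over the 9 libraries was most like that of AKR1B10 were CCDC69, C10orf99, ATP10B, SDK1 and TMPRSS11E, by root mean square differences of 0.35, 0.36, 0.40, 0.41 and 0.42 in centred log2 CPM among 12842 candidates. CCDC69 averaged 73.7 ± 7.06 CPM in mut-FTO, 34.05 ± 2.94 in FTO and 7.51 ± 1.84 in Vector (SD, n = 3 each). C10orf99, which encodes a secreted epithelial peptide, averaged 223 ± 20.7 CPM in mut-FTO, 105 ± 15.3 in FTO and 26.4 ± 4.16 in Vector (SD, n = 3 each). For the AKR1C sum they were C21orf33, EIF4A3, SAMM50, TMEM106C and LETMD1, with differences of 0.14 to 0.15. EIF4A3, a helicase of the exon junction complex, had 219, 223 and 243 CPM in mut-FTO libraries and 191, 200 and 204 CPM in FTO libraries, against 163, 174 and 106 CPM in Vector libraries. Of the genes most like the AKR1C sum, all 5 had their lowest level in Vector replicate 3. The sum was itself lowest there, at 346 CPM, and the genes were picked for likeness to it over the same libraries. Their shared low therefore follows largely from that choice.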

How the data were processed

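The authors deposited raw whole-number counts per gene. Per the submitters' processing notes, HISAT2 and StringTie were used, with the mouse build mm10, although cells and symbols are human, so genes are given without coordinates from the table. How reads were counted, whether by strand, and on which annotation is not given in the sources used here. Columns were matched to groups by their letters (N to Vector, F to FTO, tF to mut-FTO), and nothing else tells the FTO columns from the mut-FTO columns. Any pair of libraries differed by more than sampling noise.

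The test was that of edgeR 4.0.16 (R 4.3.3): filterByExpr by group (minimum count 10, minimum total 15; 13713 of 21170 features kept), TMM scaling, 1 model with all 9 libraries, robust quasi-likelihood tests and Benjamini-Hochberg adjustment over all genes, called below 0.05. Standard errors are the log2 fold change over the root of F. CPM values carry TMM scaling, with a prior count of 2 on the log2 scale. The members and gene lists were chosen with earlier results of these data known. Besides the members, FTO, NFE2L2, KEAP1, up to 3 called genes per list, direction and comparison and the 5 features most like AKR1B10 and the AKR1C sum are named; other genes named were chosen after their values were seen. Near-identical genes (AKR1C, AKR1B15, TRIM16L, CYP4F11) and overlapping genes are uncertain, since read assignment is not known. Depth was 32222203 to 37846027 counts per library. Alternatives were RLE size factors, library size alone, DESeq2 1.42.0, limma-voom (limma 3.58.1), a filter at a mean of 10 counts or none, a fit of the 6 compared samples alone, a block by replicate number, each library left out, both Vector replicate 3 and mut-FTO replicate 2 left out, and assembled loci and mitochondrially encoded genes left out. Replicate numbers were not treated as pairs, since correlations of same-numbered deviations lay between -0.127 and 0.106. Such correlations do not show whether same-numbered libraries shared a culture or preparation. Promoter windows came from RefSeq (GRCh38.p14), coding sequences from GENCODE v29.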

Additional observations from a re-analysis of the deposited data

How the results depend on the processing

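In mut-FTO against Vector the calls of AKR1B10, AKR1C3, HMOX1 and GPX2 held in all 19 alternatives. Genes called there numbered 1067, and 1680 with DESeq2, 621 with only the 6 samples compared, 2401 without Vector replicate 3 and mut-FTO replicate 2, and 609 to 2089 with 1 library left out. Genes called in FTO against Vector numbered 102, and 366, 41, 1050 and 27 to 476 in those settings. Genes called in mut-FTO against FTO numbered 319, and 751, 1218, 1196 and 71 to 1427. Members called in mut-FTO against Vector stayed between 3 and 6. Members called in FTO against Vector numbered 0 with only the 6 samples, 3 without both libraries and 0 to 3 with 1 left out. Members called in mut-FTO against FTO numbered 4, 4 and 0 to 4. The rise of the AKR1C sum in mut-FTO against Vector lost its call with library size alone (log2 0.72), with only the 6 samples (0.78) and with the replicate block (0.79), and ran from 0.58 to 0.99 with 1 library left out. The causes were not tested. The replicate numbers were not treated as pairs, and with them as a block 813, 67 and 222 genes and 4, 1 and 1 members were called in the 3 comparisons.

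Directions turned only for differences that had not passed. In mut-FTO against Vector, NQO1 turned to 0.0020 with limma-voom, was -0.30 without both libraries, and ran from -0.29 to 0.14 with 1 left out, and TXNRD1 turned to 0.12 without both libraries and ran from -0.19 to 0.084. NFE2L2 there turned to 0.11 with limma-voom, 0.098 with the replicate block and 0.51 without both, and ran from -0.24 to 0.52. In FTO against Vector, NFE2L2 turned to -0.0026 with library size alone, was 0.55 without both, where it passed, and ran from -0.21 to 0.54, GCLM turned to 0.025 without both and ran from -0.18 to 0.016, and KEAP1 turned to -0.080 and ran from -0.089 to 0.31. In mut-FTO against FTO, NFE2L2 turned to 0.0018 with the replicate block and ran from -0.15 to 0.078, and FTO was -0.31 without both and ran from -0.29 to 0.073. Among the 10 members, AKR1B10 in Vector had the fewest reads.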
